A study of Mus musculus with 4 samples.

Results

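Spp1 encodes osteopontin, and its RNA was counted in T cells sorted from mouse tumors by the surface protein CD3. It is 1 of the 32285 genes counted in each of 4 libraries and was chosen by its fold change between the groups in CD4+ T cells of these same libraries, so the values of that contrast are described here and carry no test. A unique molecular identifier (UMI) stands for 1 captured RNA molecule. Among the cells kept after filtering, 75 of 6418 and 80 of 5414 cells of the control libraries and 219 of 2827 and 245 of 3881 cells of the knockdown libraries held at least 1 Spp1 UMI.

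The tumors grew under the skin of wild-type C57BL/6J mice, injected at 6 weeks of age with 105K cells, a mouse kidney tumor line that lacks Tsc2. The line carried a non-targeting short hairpin RNA (sh-NC, 2 libraries) or one that silences the immune checkpoint B7-H3, whose gene is Cd276 (sh-B7-H3 (1), 2 libraries). Both groups share the Tsc2-deficient line, a hairpin and the CD3 sort. By CITE-seq, RNA and barcoded antibodies bound to surface proteins were counted together in each cell. In each group 80 tumors were pooled before sorting. The study also writes of tumors pooled into independent samples, while no source used here ties a library to its own set of mice, so whether 2 libraries of a group share a pool cannot be told. They were treated as draws from a shared pool, and p-values measure only the spread between these libraries, which may be technical. Only tumor cells carry the hairpin, and the CD3 sort removes them, so the labels cannot be checked on Cd276.

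The called cells held 79224898 to 132820909 RNA UMIs a library, and the median kept cell held 6260 to 8308 UMIs. From 40.2 to 53.0% of the called barcodes were kept. Library pairs shared 17 to 35 barcodes.

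Osteopontin is a secreted phosphoprotein of bone matrix that is also a cytokine. It binds the hyaluronan receptor CD44 and integrins, and thrombin and matrix metalloproteinases cut it. Macrophages are its best known source among immune cells, and activated T cells make it too, under the T-box factor T-bet. In tumors it is studied mostly as a product of macrophages and cancer cells.

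Spp1 (ENSMUSG00000029304) lies on the plus strand of chromosome 5 at chr5:104435118-104441050 of GRCm38, the build also called mm10. Its transcript Spp1-201 has 7 exons and 882 coding bases. The stretch below is shown because integrin binding rests on it: the arginine, glycine and aspartate codons, in capitals, occur in this order once in the reading frame, in exon 6. It runs from chr5:104439436-104439534 on the plus strand, and its 99 bases were read from the GENCODE vM21 transcript. The libraries were made from RNA 3′ ends, so their reads need not cover this site.
Spp1 integrin-binding codons: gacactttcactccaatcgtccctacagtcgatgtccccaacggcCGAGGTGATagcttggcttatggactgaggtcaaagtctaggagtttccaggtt

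Cells were sorted into classes by their own RNA. C1q-positive cells held 3 or more UMIs of the complement genes C1qa, C1qb and C1qc, which mark tissue macrophages. The remaining cells were called Cd4 with 1 or more Cd4 UMIs and at most 2 UMIs over Cd8a and Cd8b1. Cd8 cells had 3 or more UMIs over Cd8a and Cd8b1 and no Cd4 UMI. Cells with 1 or more Cd4 UMIs and 3 or more over these Cd8 genes were called both, and the others neither. The Cd4 cells were split by a UMI of Foxp3, the regulatory T cell factor. Cells with 2 or more UMIs over a short set of naive T cell genes that includes Ccr7 and Lef1 and none over Gzmk, Gzmb, Nkg7, Ifng, Pdcd1, Lag3 and Cxcr6 were called naive-type. The T cell markers were present in every library of the Cd4 classes, and Cd3e was found in 94.0 to 96.9% of Cd4 Foxp3-negative cells. C1q-positive cells held the 11 macrophage markers at 22919 to 41930 CPM, the UMIs of a gene per 1e6 RNA UMIs of the class, but Cd3e was found in 50.8% and 52.1% of them in the control, against 23.3% and 33.8% in the knockdown libraries. They are thus called here by their rule and not as a pure cell type.

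Spp1 lay mainly in 2 kinds of cell, the C1q-positive cells and the Cd4 Foxp3-negative cells. Of all Spp1 UMIs in kept cells, C1q-positive cells held 42.8% and 73.8% in the control, against 29.5% and 23.6% in the knockdown libraries. Cd4 Foxp3-negative cells held 49.8% and 15.1% in the control, against 63.8% and 66.8% in the knockdown libraries. Among kept cells the Cd4 Foxp3-negative class thus held most of the Spp1 UMIs in both knockdown libraries, and the control libraries differed in the order of these classes. Both statements depend on the filters. Over all called barcodes Cd4 Foxp3-negative cells held 45.9% and 37.7% in the knockdown libraries, where C1q-positive cells held 34.9% and 37.7%. In both control libraries C1q-positive cells led over all called barcodes (65.6% and 72.1%, with 17.6% and 10.3% in Cd4 Foxp3-negative cells), as they did with doublets kept, without the upper gene limit or with a C1q limit of 1 UMI. The C1q-positive cells were only 1.01% and 1.35% of the kept cells in the control, against 5.77% and 3.81% in the knockdown libraries. Cd8 cells held 3.64 to 4.45% of the Spp1 UMIs in the 4 libraries, although they are the largest class of cells.

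**Figure D1:**
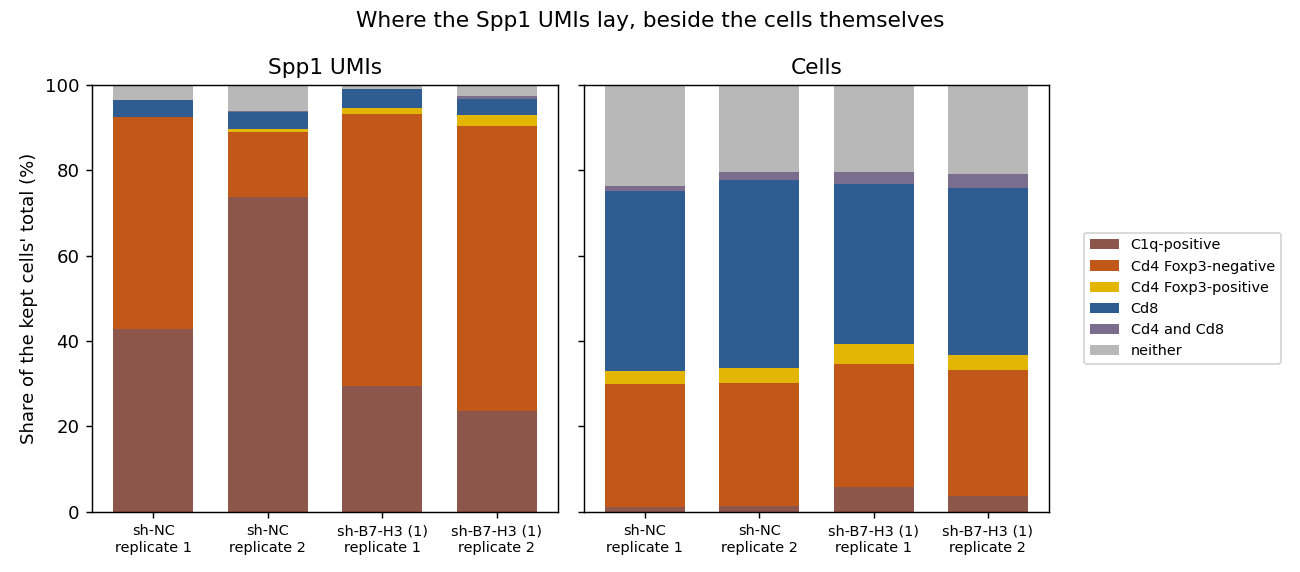
Share of the Spp1 UMIs (left) and of the kept cells (right) by cell class, in percent of each library's total, as stacked bars for the 4 libraries. Cd4 Foxp3-negative cells hold 63.8% and 66.8% of the Spp1 UMIs in the sh-B7-H3 (1) libraries and 49.8% and 15.1% in the sh-NC libraries, while C1q-positive cells are at most 5.77% of the cells.

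On the CPM scale, C1q-positive cells had the highest Spp1 level of the kept cells in every library. Over all called barcodes of the knockdown libraries, C1q-positive cells had 87.4 and 127.8 CPM and Cd4 Foxp3-negative cells 158.8 and 124.9 CPM, so the order turned in replicate 1. In kept cells the C1q-positive level was 529.9 and 974 CPM in the control, against 1123 and 676 CPM in the knockdown libraries, a range in which the groups overlap. Of the C1q-positive cells, 36.9% (exact 95% binomial interval 25.3 to 49.8%) and 43.8% (32.2 to 55.9%) held a Spp1 UMI in the control. This share was 33.7% (26.5 to 41.6%) and 25.7% (18.9 to 33.5%) in the knockdown libraries, below both control libraries. The median depth of the class was 5101 and 6002 UMIs in the control, against 2179 and 2307.5 in the knockdown libraries. After each cell was thinned to 1000 UMIs, the shares were 23.4% and 28.8% against 25.3% and 17.8%, which overlap between the groups. Cells too shallow for this thinning numbered 8 and 6 against 25 and 27. The group means of the level differed by 0.26 on the log2 scale, less than the spread between the libraries of a group, and the sign turned when sh-NC replicate 1 (-0.11) or sh-B7-H3 (1) replicate 1 (-0.15) was left out. With all called barcodes in place of the kept cells it was -1.68. These binomial and counting intervals cover counting error only. A few cells carried the class: the 10 cells with the most Spp1 UMIs held 78.8 to 84.2% of them, and the highest cell held 56 and 127 UMIs in the control, against 217 and 89 in the knockdown libraries.

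Cd4 Foxp3-negative cells came next in the knockdown libraries, at 215.6 and 122.9 CPM, against 15.4 and 6.63 CPM in the control libraries. Both knockdown libraries lay above both control libraries, and the group means, 169.3 ± 65.6 and 11.03 ± 6.22 CPM (SD, n = 2 each), differed by 3.94 on the log2 scale, or by 4.67 without sh-NC replicate 1. A Spp1 UMI was found in 1.51% (interval 1.00 to 2.17%) and 1.09% (0.636 to 1.74%) of these cells in the control, against 13.0% (10.7 to 15.5%) and 12.5% (10.7 to 14.6%) in the knockdown libraries. After each cell was thinned to 1000 UMIs, which sets the depths equal, the shares were 0.643% and 0.407% against 6.47% and 5.32%. The median depth of the class was 7499 and 8021 UMIs in the control, against 6754 and 6838 UMIs in the knockdown libraries.

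In Cd4 Foxp3-positive cells, the class of the regulatory T cell factor, Spp1 had 0 UMIs in 198 cells and 4 UMIs in 189 cells of the control libraries, and 23 UMIs in 131 cells and 38 in 137 cells of the knockdown libraries. The levels were 0 and 2.89 CPM against 26.8 and 42.8 CPM, with no overlap of the groups. The 0 of 198 cells allows a share of cells with a UMI of up to 1.52%, taken as 3 cells of the total (the exact binomial bound is 1.85%), which does not limit the share of cells that express the gene, and the other control library was at 1.59%. Only 1 cell of this class, in a knockdown library, held 10 or more Spp1 UMIs. The log2 difference of 4.59 was 3.59 without sh-NC replicate 1 and fell to 2.41 with all called barcodes, where the control libraries held 4 and 38 Spp1 UMIs.

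Cd8 cells had 0.707 and 1.04 CPM in the control, against 11.04 and 4.66 CPM in the knockdown libraries. The share with a Spp1 UMI was 0.631% and 0.753% against 3.30% and 2.11%. Cells called both held 0 and 1 against 4 and 10 Spp1 UMIs, and cells called neither had 1.49 and 4.03 against 5.71 and 9.36 CPM. In the order of levels in the knockdown libraries, C1q-positive and Cd4 Foxp3-negative cells stood apart from each other and from the rest, and Cd4 Foxp3-positive cells followed in both. Among cells without macrophage UMIs the latter order turned in replicate 1, at 7.95 CPM in Cd4 Foxp3-positive and 13.1 CPM in Cd8 cells. Cd8 cells, cells called both and cells called neither lay between 4.66 and 11.04 CPM and did not keep 1 order across the 2 libraries.

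**Figure D2:**
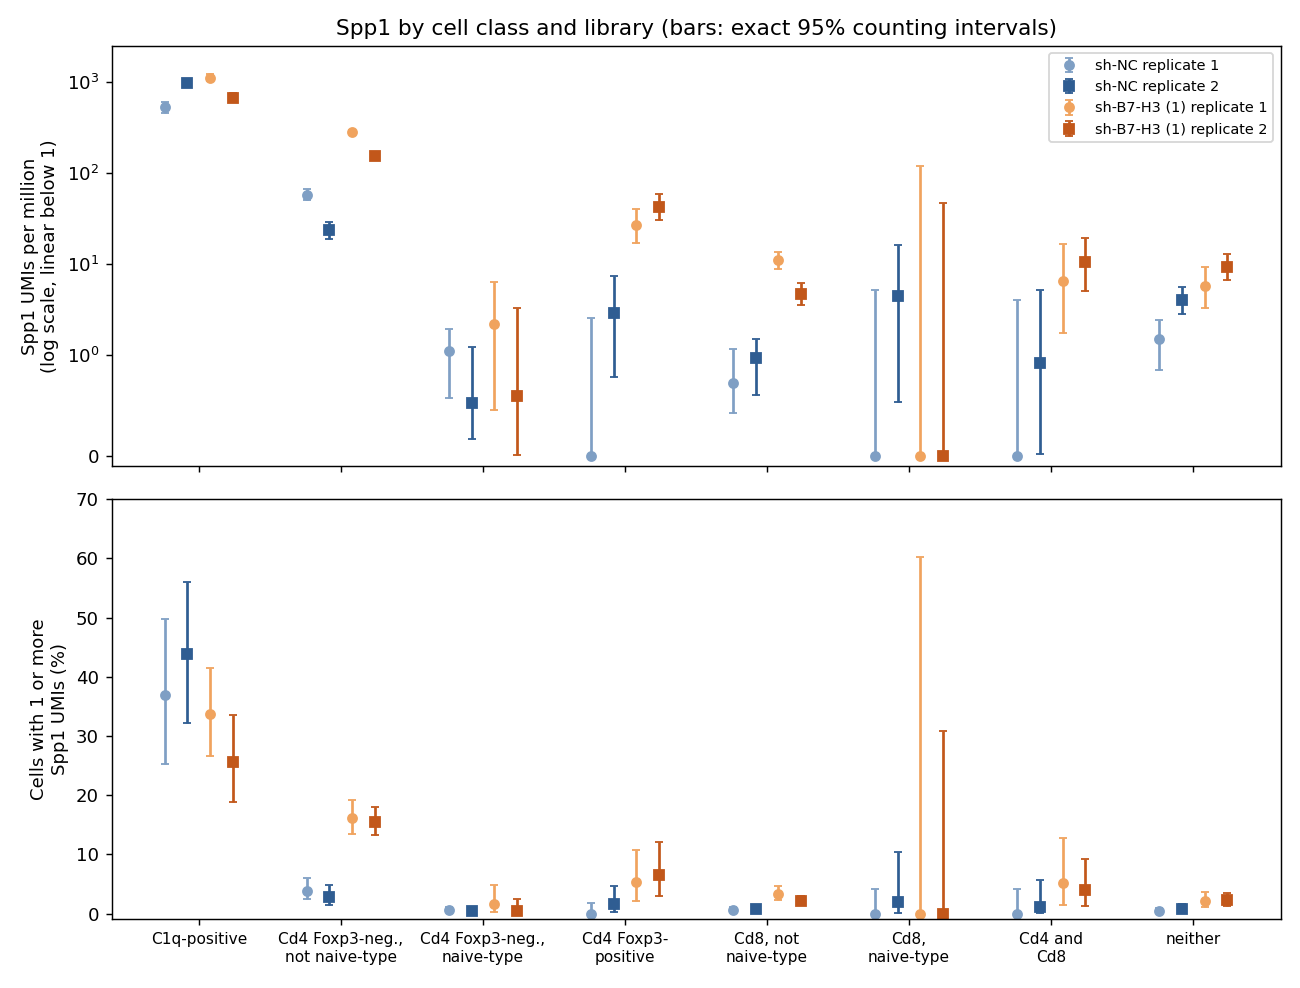
Spp1 level in CPM (top, log axis, linear below 1) and percent of cells with a Spp1 UMI (bottom) for 8 cell classes in the 4 libraries; points are libraries and bars are exact 95% counting intervals. C1q-positive cells overlap between the groups in CPM, while their percent with a Spp1 UMI, not thinned, is higher in both sh-NC libraries. Cd4 Foxp3-negative cells that were not naive-type are at 58.1 and 23.6 CPM in sh-NC and 284.8 and 155.9 CPM in sh-B7-H3 (1). Naive-type cells are at 0 to 4.44 CPM. The Cd8 naive-type values of sh-B7-H3 (1) rest on 4 and 10 cells, where 0 UMIs allow up to 120.6 and 47.0 CPM. The 4.44 CPM is 2 UMIs in 1 Cd8 naive-type cell of sh-NC replicate 2.

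Free RNA in the droplets was read from barcodes that were not called as cells and held 100 or fewer UMIs. There Spp1 stood at 15.8 and 20.9 CPM in the control, against 45.1 and 36.6 CPM in the knockdown libraries, so the surrounding fluid held more Spp1 in the knockdown libraries too. Per 100 UMIs of Apoe, a lipid carrier of macrophages, these barcodes held 8.96 and 9.92 Spp1 UMIs against 6.85 and 6.503. Naive-type Cd4 cells, taken as cells that should lack Spp1, stayed at 1.12 and 0.530 CPM in the control, against 2.20 and 0.595 CPM in the knockdown libraries, with a share of 0.594% and 0.362% against 1.66% and 0.439%. Their median depths were 7669 and 8189 against 7167 and 7234 UMIs. In the control libraries the Cd8 shares were 0.631% and 0.753%, with intervals that overlap those of the naive-type cells. In the knockdown libraries the Cd8 shares of 3.30% and 2.11% lay within the exact intervals of the naive-type shares (0.343 to 4.77% and 0.0111 to 2.42%), which rest on 181 and 228 cells. The Cd8 levels of 11.04 and 4.66 CPM lay above the naive-type intervals (0.453 to 6.42 and 0.0151 to 3.31 CPM). These CPM intervals take UMIs as independent, while 1 Cd8 cell held 26 of the 84 Spp1 UMIs in replicate 1. The highest Cd8 cell of replicate 2 held 5 of 53. The shares of the Cd4 Foxp3-negative cells in the knockdown libraries lay above the intervals of the naive-type shares, and there were 587 and 305 Spp1 UMIs per 100 Apoe UMIs in these cells. In the control libraries this class held 217 and 125 per 100 Apoe UMIs. Cd8 cells held 11.8 and 17.4 in the control, against 35.9 and 13.8 in the knockdown libraries. For Cd4 Foxp3-positive cells it was 0 and 20 against 40.4 and 63.3. Subtracting the naive-type Cd4 level of each library left a log2 difference of 4.04 in Cd4 Foxp3-negative cells. The part of free RNA in the Spp1 values of the classes was not tested further.

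Within the Cd4 Foxp3-negative class Spp1 was held by cells that were not naive-type. These were 27.6% and 29.2% of the class in the control, against 77.9% and 80.0% in the knockdown libraries, and they held 94.6% and 94.1% against 99.8% and 99.9% of its Spp1 UMIs. Their own level was 58.1 and 23.6 CPM against 284.8 and 155.9 CPM, a log2 difference of 2.43 in place of 3.94 for the whole class. The knockdown libraries thus held both a larger share of such cells and a higher Spp1 level over them. The share of these cells with a Spp1 UMI was 3.89% and 2.85% in the control, against 16.2% and 15.5% in the knockdown libraries. Holding cells had a mean of 10.45 and 6.15 against 11.65 and 6.85 Spp1 UMIs, which overlap between the groups. The naive-type cells themselves overlapped between the groups.

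Single genes of effector T cells were used to split the class as well. Cells with a UMI of Nkg7, a granule protein of cytotoxic cells, made up 16.3% and 17.0% of the class in the control, against 67.5% and 70.2% in the knockdown libraries. Their Spp1 level was 98.4 and 40.0 CPM against 323.7 and 174.8 CPM, and 5.94% and 4.53% against 18.3% and 17.3% of them held Spp1. Cells without a Cxcr6 UMI, the receptor of tissue-resident T cells, stayed low in all libraries, at 1.65 and 0.531 against 1.61 and 0.872 CPM. Only 0.676% and 0.371% against 1.11% and 0.617% of them held Spp1, so these levels rest on few cells. Cells with Cxcr6 had 127.8 and 51.5 CPM against 386.7 and 216.9 CPM. So the groups overlapped where Cxcr6 was not detected and did not overlap where it was. Of the 21 effector and inhibitory genes, 3 gave such an overlap in the cells without a UMI. The others were the chemokine gene Ccl5, at 2.25 and 0.817 against 1.03 and 0 CPM, and Tox, a factor of exhausted T cells, at 4.82 and 1.55 against 4.04 and 13.7 CPM. Without Nkg7 the levels were 1.15 and 0.553 against 2.66 and 1.69 CPM, without the inhibitory receptor Pdcd1 1.55 and 0.441 against 66.2 and 15.2 CPM, and without the granzyme Gzmk 3.66 and 2.10 against 126.4 and 76.9 CPM.

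Few cells carried most of the Spp1. In the Cd4 Foxp3-negative class, 7 of 1860 and 3 of 1561 control cells and 29 of 818 and 27 of 1142 knockdown cells held 10 or more UMIs. These cells held 75.6% and 50.6% of the class's Spp1 UMIs in the control, against 79.1% and 67.0% in the knockdown libraries. The 10 highest cells alone held 86.4% and 90.6% against 53.8% and 41.2%. These shares depend on the number of holding cells, which was 28 and 17 in the control, against 106 and 143 in the knockdown libraries. The highest cell held 57 and 18 UMIs against 130 and 89, and the log2 difference without the highest cell of each library was 4.19. Among all genes of the cells that were not naive-type, Spp1 ranked 2076th and 4379th by UMIs in the control, against 359th and 659th in the knockdown libraries. By the variance over the mean between cells it ranked 13th and 41st against 5th and 12th, so the knockdown cells differed from each other in Spp1 more than in most of the 8638 and 9341 genes ranked.

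**Figure D3:**
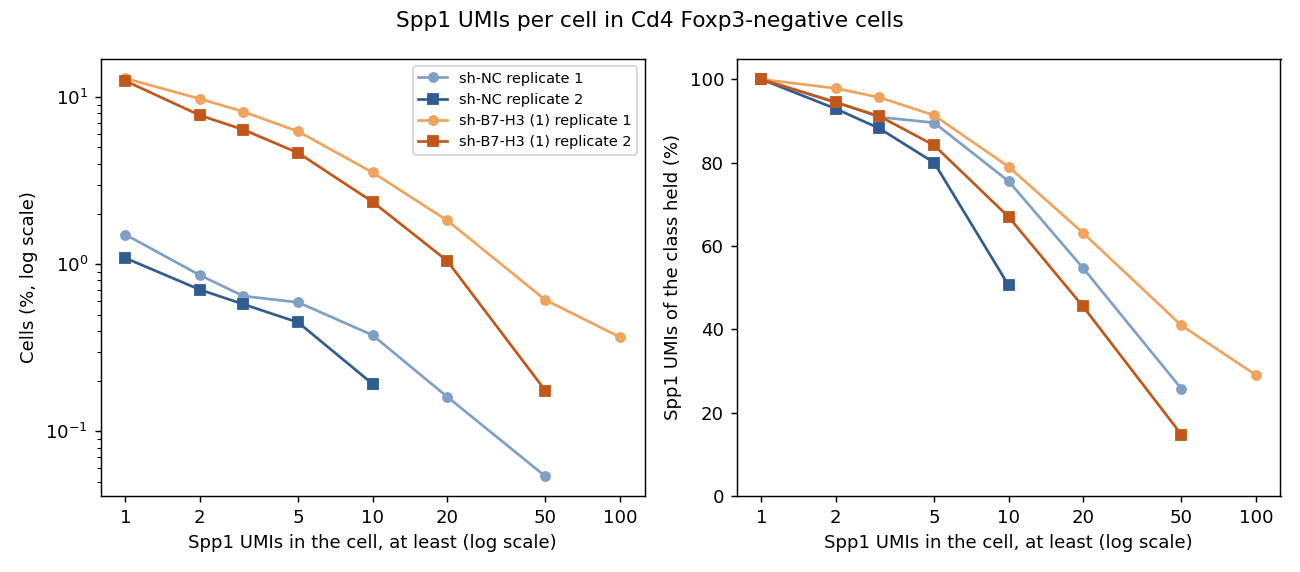
Percent of Cd4 Foxp3-negative cells (left, log axis) and percent of the class's Spp1 UMIs (right) in cells with at least the number of Spp1 UMIs on the log horizontal axis, 1 line per library; points with no cells are not drawn. At 10 or more UMIs the share of cells is 0.376% and 0.192% in sh-NC and 3.55% and 2.36% in sh-B7-H3 (1), and these cells hold 50.6 to 79.1% of the Spp1 UMIs.

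Cells that held Spp1 were compared with cells that lacked it within each library, on log2 ratios of CPM plus 1. Genes were chosen in the knockdown libraries, so their ratios there are a description, while the control libraries were not used for the choice. Holding cells were also the deeper ones at high counts: the median was 6276.5 and 6492 UMIs in cells without Spp1 and 8579 and 8976 UMIs in those with 10 or more, in the knockdown cells that were not naive-type. The part of depth in these ratios was not tested.

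The genes highest beside Spp1 in Cd4 Foxp3-negative cells were Gm36723, Calca, Filip1, Gem, Gsta4, Epdr1, Nrgn, Tnfrsf9, Mrc2 and Prr5l. Calca encodes the neuropeptide CGRP and calcitonin, Gem a small GTPase induced by activation, Gsta4 a glutathione transferase, Tnfrsf9 the costimulatory receptor 4-1BB, and Prr5l a partner of the mTORC2 complex. Their ratios ran from 1.75 to 3.35 in the knockdown libraries. In the control libraries 9 of these 10 genes in replicate 1 and 10 of 10 in replicate 2 had a ratio of at least 1, against 13.8% and 14.4% of the 2349 genes considered. The exception was Calca at -0.77 in replicate 1. Because control cells are mostly naive-type, the comparison was repeated among cells that were not: the counts were again 9 of 10 and 10 of 10, against 9.41% and 10.6% of the genes considered. There were only 20 and 13 holding cells in these control libraries.

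Tnfrsf9 is the best known of these genes. Among the cells that were not naive-type its level was 76.9 and 125.8 CPM in control cells without Spp1 and 117.6 and 122.0 CPM in knockdown cells without it. In holding cells it was 663.9 and 357.2 CPM in the control, against 377.7 and 361.7 CPM in the knockdown libraries. Holding cells were thus higher than lacking cells in all 4 libraries.

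The genes lowest beside Spp1 were Tesc, Dapl1, Tcf7, Emb and Il7r. Tcf7 encodes the TCF-1 factor of naive and memory T cells, and Il7r the interleukin-7 receptor that keeps resting T cells alive. Their ratios ran from -4.21 to -3.28 in the knockdown libraries. Over all cells of the class 3 of the 5 genes had a ratio of -1 or lower in each control library, against 2.13% and 4.47% of the genes considered. Among cells that were not naive-type all 5 genes had a ratio of -1 or lower in both control libraries, against 5.79% and 8.003% of the genes considered. In those cells Tcf7 stood at 252.9 and 241.8 CPM in control cells without Spp1 and at 123.8 and 131.3 CPM in knockdown cells without it. It had no UMI in the 7 and 3 control cells with 10 or more Spp1 UMIs, and was at 0 and 12.3 CPM in the 29 and 27 such knockdown cells.

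**Figure D4:**
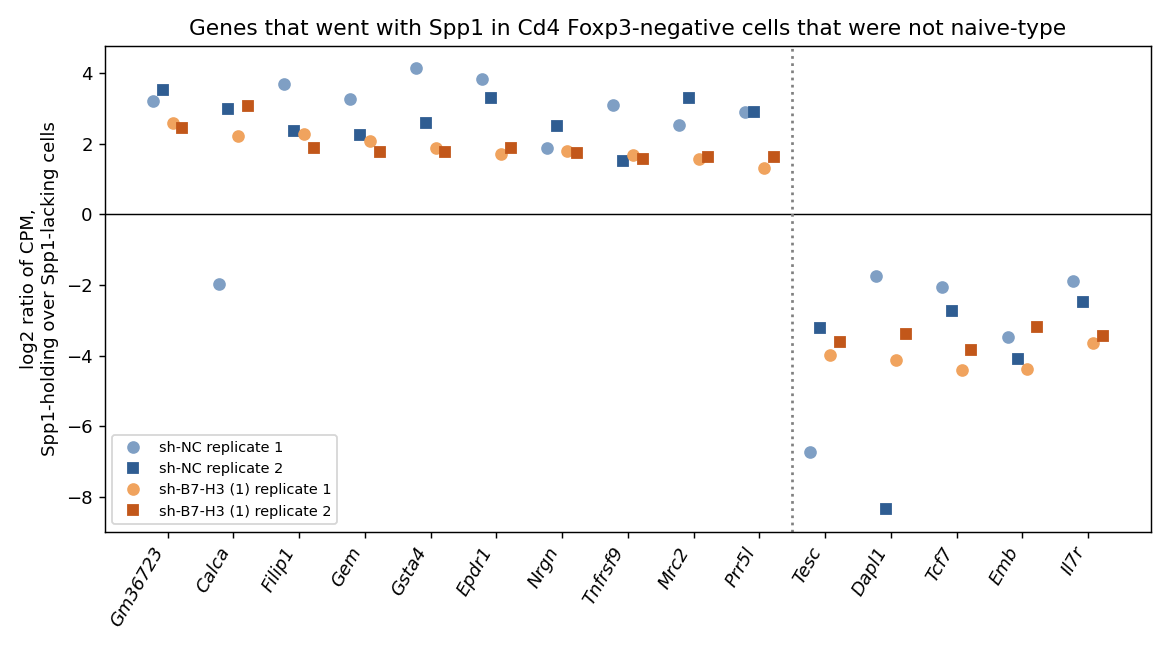
Log2 ratio of CPM plus 1 (vertical axis) in Spp1-holding over Spp1-lacking cells for the 10 highest and, right of the dotted line, the 5 lowest genes, among Cd4 Foxp3-negative cells that were not naive-type; 1 point per library. All points of the 10 genes but Calca in sh-NC replicate 1 (-1.96) lie above 1, and all points of the 5 genes lie below -1.

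Surface tags followed. The tags highest beside Spp1 were CD39, CD38, CD200R, CD55 and CD4, at ratios of 0.61 to 0.88 in the knockdown libraries. In the control libraries their ratios were 0.98 to 2.43, CD39 leading in replicate 2 and CD38 in replicate 1. CD39 and CD38 are enzymes on the cell surface that degrade extracellular ATP and NAD. The lowest tags were CD24, CD102, CD26, CD127 (the interleukin-7 receptor) and CD61, at -2.91 to -0.89 in the knockdown libraries. CD24 is set apart, since its median among cells that were not naive-type was 2 to 5 counts at every Spp1 level, so that its mean rests on few cells.

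The median CD39 tag in cells that were not naive-type was 26.0 and 25.0 counts in control cells without Spp1 and 281.5 and 176.5 counts in knockdown cells without it. With 2 to 9 Spp1 UMIs it was 447.5 and 804 counts in the control, against 557 and 355 counts in the knockdown libraries. CD38 was likewise higher in holding cells, going from 25.0 and 34.0 counts to 462.5 and 763 in the control, and from 425.5 and 268.5 to 704 and 480.5 in the knockdown libraries. These control bins hold only 6 and 7 cells, and their medians lay above those of the knockdown cells without Spp1. The medians are raw counts that were not scaled to the tag depth of each library, so differences between libraries may hold depth as well. Over the whole class the scaled CD39 level was nearly equal in the knockdown libraries, at 49631 and 48276 tag CPM. In the control bins of 1 and of 10 or more UMIs, of 3 to 7 cells each, the medians were 625 to 634 counts for CD39 and 753 to 1257 counts for CD38. The RNA of the inhibitory receptor Lag3 stood at 236.9 and 222.0 CPM in control cells without Spp1 and at 865 and 1093 CPM in those with 10 or more UMIs. In the knockdown libraries it was 425.7 and 378.4 against 885 and 839 CPM.

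The chemokine Ccl3 did not follow the Spp1 count as evenly. In the knockdown libraries Ccl3 was 1458 and 1313 CPM in cells without Spp1, 553 and 2312 CPM at 1 UMI, and 9657 and 5940 CPM at 10 or more. In sh-NC replicate 1 its highest level, 10597 CPM, was at 2 to 9 UMIs, which is 6 cells.

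**Figure D5:**
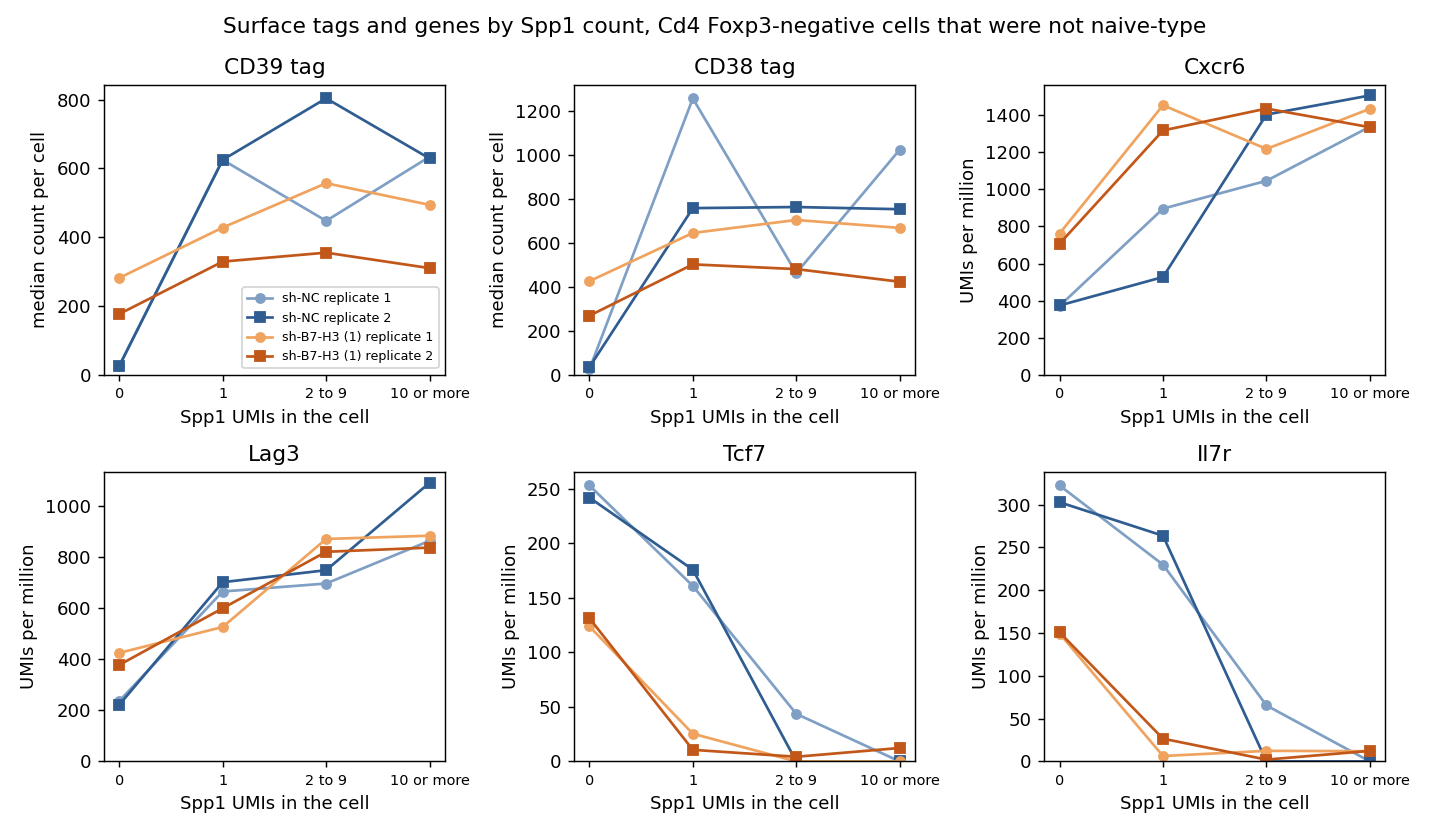
Median tag count per cell (CD39, CD38) and CPM (Cxcr6, Lag3, Tcf7, Il7r) against the number of Spp1 UMIs in the cell, for Cd4 Foxp3-negative cells that were not naive-type; 1 line per library. CD39, CD38, Cxcr6 and Lag3 are lowest at 0 Spp1 UMIs in all 4 libraries and Tcf7 and Il7r highest; the control bins with Spp1 hold 3 to 7 cells each.

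Other classes had mostly other leading genes. In Cd4 Foxp3-positive cells, with 7 and 9 holding cells in the knockdown libraries, the natural killer receptor Klrd1 (4.84 and 4.65) and the chemokines Ccl4 (5.37 and 4.49) and Ccl3 (4.46 and 5.23) led, followed by Cd244a and Car2. The control libraries had 0 and 3 holding cells, in which none of these genes was higher than in lacking cells. In Cd8 cells Slc16a11, Klri2, Gsta4, Nrn1 and Mt1 led, at 2.35 to 3.87 in the knockdown libraries. In the control libraries their ratios ran from -1.72 to 0.23 in replicate 1 and from -0.06 to 5.34 in replicate 2. Gsta4 is the only gene of the leading ones that Cd8 and Cd4 Foxp3-negative cells had in common.

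In C1q-positive cells Fn1, the matrix protein fibronectin, led at 4.06 and 3.04 in the knockdown and 0.16 and 4.72 in the control libraries. The chemokine Cxcl14 (2.89 and 2.77, control 0.68 and 2.29), Hist1h2ap and the tetraspanin Cd9 (2.05 and 1.58, control 1.96 and 0.78) followed. Dhrs3, Pik3ap1, Sirpb1c, Clec4a1, Igsf6 and Pilra completed the 10. The T cell genes Cd7 and Izumo1r were lowest, at -6.46 and -3.91 and at -5.70 and -3.22 in the knockdown libraries. The tags CD11b (0.77 and 1.21, control 1.03 and 1.05) and CD16/32 (0.59 and 0.55, control 0.90 and 0.75), both borne by macrophages, were higher in holding cells in all 4 libraries. In the control libraries Cd7 was at -0.14 and -1.49 and Izumo1r at -1.51 and -1.49.

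In Cd4 Foxp3-negative cells, macrophage RNA was compared between cells that held Spp1 and cells that lacked it. The 11 macrophage markers summed to 18.5 and 13.2 CPM in holding and 13.0 and 12.3 CPM in lacking control cells, and to 72.0 and 50.2 against 62.0 and 64.7 CPM in the knockdown libraries, so they were higher in the holding cells of 3 of the 4 libraries. The share of cells with any UMI of these markers was higher in the holding cells of all 4, at 14.3% against 7.81% and 11.8% against 9.33% in the control, and 36.8% against 29.4% and 32.9% against 30.7% in the knockdown libraries. The 6 T cell markers were higher in the holding cells of all libraries, at 9785 to 10251 against 5855 to 7295 CPM. The 9 genes of regulatory T cells, of which Foxp3 is at 0 here by the rule of the class, were higher in sum in the holding cells too, at 615.1 against 229.1 and 687.6 against 248.7 CPM in the control, and 709.4 against 448.8 and 678.6 against 464.3 CPM in the knockdown libraries. Among Cd4 Foxp3-positive cells this sum was lower in the holding cells of every library that had them. It stood at 3030 against 4142 CPM in sh-NC replicate 2, and at 3125 against 4689 and 1542.5 against 4140 CPM in the knockdown libraries. For Cd8 cells it was lower in the holding cells of sh-NC replicate 1, at 56.4 against 102.5 CPM, and higher in the other libraries. Between the groups, however, macrophage RNA was also higher in the knockdown libraries: the list stood at 13.1 and 12.3 CPM against 63.5 and 62.7 CPM in Cd4 Foxp3-negative cells. Among cells with no UMI of the 11 markers the Spp1 difference was 3.76 on the log2 scale, against 3.94. In sh-B7-H3 (1) replicate 1 those cells were 570 of 818 but held 567 of the 1203 Spp1 UMIs, and the level there was 147.6 in place of 215.6 CPM. In replicate 2 they were 788 of 1142 and held 630 of 973 Spp1 UMIs. In the other T cell classes macrophage RNA was higher in the holding cells of every library that had holding cells. In Cd8 cells the list stood at 56.4 against 12.8 and 69.4 against 12.8 CPM in the control, and at 70.2 against 52.2 and 94.999 against 57.6 CPM in the knockdown libraries, in 17 to 35 holding cells. In Cd4 Foxp3-positive cells it stood at 116.5 against 42.4 CPM in sh-NC replicate 2, and at 226.2 against 93.7 and 300.7 against 75.2 CPM in the knockdown libraries, in 3, 7 and 9 holding cells. The part of macrophage RNA in the Spp1 of these classes was not tested beyond the cells without its UMIs, where the Cd4 Foxp3-positive difference was 4.15. In those cells of the knockdown libraries the Cd4 Foxp3-positive level was 7.95 and 21.9 in place of 26.8 and 42.8 CPM, from 4 and 13 in place of 23 and 38 Spp1 UMIs.

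The genes around osteopontin were tested between the groups in edgeR's quasi-likelihood test on UMIs summed per library, where calls needed a log2 change of at least 1 and p under 0.05 after Benjamini-Hochberg adjustment. In Cd4 Foxp3-negative cells 8.33% of the 11274 genes tested were called higher in the knockdown libraries and 2.46% lower. In Cd8 cells 7.30% were higher and 2.21% lower, in Cd4 Foxp3-positive cells 0.489% and 0.180%, and in C1q-positive cells 0.692% and 0.541%. The counts below are read against these shares. The CPM of the tested genes and tags were scaled between libraries by TMM, so they can differ from the unscaled CPM used elsewhere.

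Of the 10 receptor genes, 5 passed the filter on low counts in Cd4 Foxp3-negative cells, and 2 rose. Itgav, the alpha chain of several integrins that bind the stretch shown above, was 14.1 and 15.8 CPM in the control, against 58.7 and 61.5 CPM in the knockdown libraries (log2 change 2.01, SE 0.09, edgeR adjusted p = 3.51e-11). Itga4, the alpha chain of another osteopontin integrin, rose by 1.18 (SE 0.04, edgeR adjusted p = 9.56e-13). Cd44 was at 25.6 and 29.1 against 53.1 and 54.9 CPM, a log2 difference of 0.99, just under the limit. Itgb3, a partner of Itgav, was at 12.2 and 14.5 against 8.65 and 8.35 CPM. In Cd8 cells 3 of 5 rose, Cd44 (1.27), Itgav (1.63) and Itgb1 (1.12), and in Cd4 Foxp3-positive and C1q-positive cells 0 of 5 did.

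Receptors could also be read as proteins. Of the named tags, 1.52% were higher and 5.08% lower in Cd4 Foxp3-negative cells, 1.02% and 1.52% in Cd4 Foxp3-positive cells, and 1.52% and 4.57% in Cd8 cells. The CD44 tag did not pass the test in these 3 classes, with log2 differences of 0.04, 0.20 and 0.00. Its level in Cd4 Foxp3-negative cells was only 238 and 240 against 239 and 250 tag CPM, far below the other tags given here. So low a tag may not show a change in CD44 protein. The CD51 tag, the protein of Itgav, was at 4463 and 4393 against 3276 and 3280 tag CPM in Cd4 Foxp3-negative cells (-0.43), which does not have the direction of its RNA. The CD49d tag, the protein of Itga4, differed by 0.37 and the CD61 tag, that of Itgb3, by -0.73, both in the direction of their RNA and neither past the fold limit. The CD38 and CD39 tags rose in Cd4 Foxp3-negative cells by 1.52 and 1.42 (SE 0.06 and 0.05, adjusted p = 8.29e-04 for both, edgeR). They rose in Cd8 cells too, by 1.26 and 1.09 (adjusted p = 4.69e-03 and 4.50e-03, edgeR). Neither was called in Cd4 Foxp3-positive cells, at 0.06 and -0.01.

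Of the 10 proteases that cut osteopontin, only the lysosomal Ctsb and Ctsd passed the filter in Cd4 Foxp3-negative cells, and both rose, by 1.00 and 1.12. In C1q-positive cells Mmp12, the macrophage elastase, fell by 3.03 (SE 0.53, edgeR), but its levels of 459.8 and 40.9 CPM in the control and 50.6 and 8.58 CPM in the knockdown cells overlap between the groups, with sh-NC replicate 1 far above the rest. The genes of thrombin and plasmin had at most 2 UMIs in a library of the Cd4 Foxp3-negative class. Ibsp, Mepe and Dspp, bone matrix genes of the same family and chromosome, had 0 UMIs in the called cells and Dmp1 had 1.

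Of the 12 regulators of Spp1, 4 rose and 2 fell in Cd4 Foxp3-negative cells. Tbx21, the gene of T-bet, was at 1.37 and 2.18 against 9.17 and 6.39 CPM (log2 change 2.11, SE 0.28, edgeR adjusted p = 1.58e-05). Runx2 rose by 2.18, Runx3 by 1.76 and Batf by 1.05, while the AP-1 genes Fos and Jun fell by 1.74 and 1.47. In Cd8 cells Tbx21 and Runx2 rose and Fos and Jun fell, and in Cd4 Foxp3-positive cells only Runx2 rose (1.14, adjusted p = 0.026, edgeR). In the knockdown libraries 27.7% and 16.7% of the Cd4 Foxp3-negative cells with a Tbx21 UMI held Spp1, against 12.1% and 12.3% of those without. The Spp1 level with and without Tbx21 was 228.6 and 214.8 CPM in replicate 1, against 552.7 and 104.2 CPM in replicate 2. With a Runx2 UMI the share was 32.5% and 21.3%, against 9.496% and 10.95% without. With a Tcf7 UMI it was 0.645% and 1.77%, against 20.5% and 19.5% without.

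The other lists describe the cells around Spp1. Of 21 effector and inhibitory genes 17 rose in Cd4 Foxp3-negative cells, 20 in Cd8, 8 in Cd4 Foxp3-positive and 1 of the 19 tested in C1q-positive cells, where 1 fell. Of 8 naive and resting genes 7, 7, 2 and 5 fell in the same order. None of the 5 T follicular helper genes tested in Cd4 Foxp3-negative cells was called. The macrophage markers rose in T cell classes too, 6 of 7 in Cd4 Foxp3-negative and 7 of 8 in Cd8 cells. In Cd4 Foxp3-positive cells only 2 were tested, and 1 rose. The part of these markers in the Spp1 values of the Cd8 cells was not tested beyond the cells without macrophage UMIs. There the log2 difference was 3.61 against 3.16. Without sh-B7-H3 (1) replicate 1 the Cd8 difference was 2.41.

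Over 7 classes of cell in the 4 libraries (28 sums), the genes whose log2(CPM + 1) lay closest to that of Spp1 by Pearson's r were Tnfsf13b (0.92), Cx3cr1 (0.92), Tmsb4x (0.91), Ifi204 (0.90), Cox6a1 (0.89), Ctsb (0.89), Uqcrb (0.89), Lgals3 (0.89), Eid1 (0.89) and Lat2 (0.88). Without the C1q-positive cells (24 sums) they were Tox (0.88), Ptk2b, Cd3e, Stk17b, Tmsb4x, Prkch, Nr4a2, Sub1, Ccl3 and Btg3 (0.83). The sums share libraries and classes, so r is a description. The Cd8 naive-type sums of the knockdown libraries hold only 4 and 10 cells but count as much as the others. Tmsb4x was in both lists.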

How the data were processed

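The authors aligned the reads to mm10 with Cell Ranger and deposited UMI counts per barcode for 32285 genes and the surface tags. The deposited files carry different Cell Ranger versions in their headers, and the submitters' processing notes also name Seurat 4.0.0. Here, cells were kept if they had 200 to 3000 genes detected and no more than 5% of UMIs from mitochondria. Doublets were scored against simulated ones with a threshold set per library, which removed 28.7 to 33.7% of the cells tested, a high rate. Group labels came from the sample titles.

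Counts were summed per library and class. Genes passing filterByExpr were tested with the edgeR 4.0.16 quasi-likelihood test (TMM scaling, Benjamini-Hochberg adjustment) in R 4.3.3. Named tags with 1 or more counts were tested likewise, without that filter. DESeq2 1.42.0 was an alternative. Other values were computed in Python 3.11.15 with NumPy 2.4.6, SciPy 1.17.1 and pandas 2.3.3, and drawn with matplotlib 3.10.9. On simulated counts the test recovered 81 of 100 genes changed by 1.5 on the log2 scale in Cd4 Foxp3-negative cells (11163 genes tested, 1 false call), 80 of 100 in Cd4 Foxp3-positive cells (7731 tested, 11 false calls), 87 of 100 in Cd8 cells (11444 tested, 2 false calls) and 71 of 100 in C1q-positive cells (4648 tested, 11 false calls). The simulation used the same fixed dispersion between libraries for every class, rather than the dispersion of the data. Its recovery and false calls need not hold for the real libraries. Spp1 carries no test, and the smallest exact permutation p of 2 against 2 libraries is 0.333.

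Genes that go with Spp1 had at least 50 CPM in the holding or the lacking cells of both knockdown libraries and were ranked by the less extreme of their 2 log2 ratios, leaving out mitochondrial, ribosomal protein and receptor variable segment genes. The 10 highest and 5 lowest were named in Cd4 Foxp3-negative and C1q-positive cells and the 5 highest elsewhere, with 5 tags each way at a mean of at least 1 count per cell. Every gene of the lists could be named. The gene, its classes and the lists were chosen with earlier results of these data known. The naive-type rule used 1 further gene that is not reported here and is in no list count, while its other genes are in the lists.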

Additional observations from a re-analysis of the deposited data

Results flagged for a closer look

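Spp1 was also present in barcodes that the filters removed. In the sh-B7-H3 (1) libraries 15.6% ± 0.402 (SD, n = 2) of the barcodes over the limit on detected genes held a Spp1 UMI, against 3.00% ± 0.126 in the control libraries. Among barcodes scored as doublets the share was 10.1% ± 0.266 against 1.91% ± 0.0685. Among barcodes over the mitochondrial limit it was 6.51% ± 0.907 against 1.69% ± 0.0536. These values stand out because they lie in barcodes outside the kept cells, which enter only the alternatives with looser filters, and exceed the level of the control libraries.

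The removed barcodes held most of the Spp1 UMIs in every library: kept cells held 23.1% and 25.9% of those in called barcodes in the control, against 46.8% and 28.9% in the knockdown libraries. Barcodes over the gene limit alone held 56.2% and 46.2% in the control, against 24.0% and 25.7% in the knockdown libraries.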

How the results depend on the processing

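Over 16 results and 157 alternatives, 128 values counted as kept, 24 moved and 5 changed sign. Spp1 values counted as kept when they moved by less than the spread between libraries. This SD was 0.92 to 2.09 on the log2 scale for the differences in T cell classes. Numbers of called genes or tags counted as kept by their size alone. In C1q-positive cells without sh-NC replicate 2, for instance, 50 genes were called, of which 26 were among the main 57. The Spp1 difference in Cd4 Foxp3-negative cells lay between 3.46 and 4.67 (without sh-NC replicate 1) when each library was left out, and was 2.43 among cells that were not naive-type. In Cd4 Foxp3-positive cells it ran from 3.59 (without sh-NC replicate 1) to 4.89 with each library left out, against 4.59. It was 3.05 without the upper limit on genes and 2.41 with all called barcodes. Leaving out sh-NC replicate 2 or subtracting the Cd8 naive-type level gave no value, because the control was then at 0. In Cd8 cells it ran from 2.41 (without sh-B7-H3 (1) replicate 1) to 3.66, against 3.16, and was 4.47 and 4.65 after subtracting the Cd8 or the Cd4 naive-type level, but each subtraction set a control library to 0, so these values rest on the other control library. The Cd8 naive-type level of the knockdown libraries was read from only 4 and 10 cells. In C1q-positive cells the Spp1 difference turned to -0.044 with doublets kept, -0.24 without the upper limit on genes and -1.68 with all called barcodes, and ran from -0.15 to 0.76 with each library left out. The C1q-positive share of Spp1 UMIs in the knockdown libraries was 36.3% with all called barcodes, against 26.5%. The causes were not tested. The subtraction of the Cd4 naive-type level, the removal of the highest cell, the restriction to cells that were not naive-type, the crossed block and, for the genes that go with Spp1, the limit of 10 UMIs and the kept doublets were added after seeing the data.

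Without a limit on the fold change 4768, 204, 5035 and 131 genes were called in Cd4 Foxp3-negative, Cd4 Foxp3-positive, Cd8 and C1q-positive cells, against 1216, 52, 1102 and 57. In Cd4 Foxp3-positive cells 82 genes were called with all called barcodes, 90 with lineage by tags, 31 without macrophage UMIs, 9 by DESeq2 and 8 without a filter on low counts. In C1q-positive cells the counts were 141 with doublets kept, 26 without the upper gene limit, 638 with all called barcodes, 274 at 1 or more C1q UMIs and 15 by DESeq2. Of the tags, 8 were called in Cd4 Foxp3-negative cells with all called barcodes, against 13, and 108, 74 and 128 without a fold limit in Cd4 Foxp3-negative, Cd4 Foxp3-positive and Cd8 cells. In Cd4 Foxp3-positive cells 0 to 6 tags were called by edgeR when each library was left out. The 0 came without sh-B7-H3 (1) replicate 2, where 72 tags had an unadjusted p under 0.05.

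With the replicate block, 1230, 69, 1124 and 66 genes and 14, 5 and 12 tags were called. Same-numbered libraries deviated together little (correlations of -0.02 to 0.03 over genes and -0.18 to 0.07 over tags). Such deviations also hold counting noise, so whether these libraries share more than a number cannot be told. Crossing the pairs left 12 tags called in Cd8 cells.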
